A study of Mus musculus with 16 samples.

Results

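Matrix metalloproteases (MMPs), ADAMTS proteases with their ADAMTS-like relatives, and the tissue inhibitors of metalloproteases (TIMPs) were followed across the epithelium and mesenchyme of embryonic mouse salivary glands. Members were chosen by name, as every gene of the deposited table of scaled counts whose symbol was Mmp, Adamts or Adamtsl followed by a number, or Timp1 to Timp4. The rule found 42 genes among the 23380 genes of that table: 14 Mmp, 19 Adamts, 5 Adamtsl and 4 Timp genes. The deposited raw table held 48709 gene features, and 9 further Mmp genes in it, outside the rule, had at most 5 counts in any library: Mmp1a, Mmp1b, Mmp3, Mmp7, Mmp8, Mmp10, Mmp12, Mmp20 and Mmp27. Of the 42 members, 38 passed the filter on low counts and were tested, and Mmp13, Mmp21, Adamts13 and Timp4 were not.

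The samples were bulk RNA-seq libraries of parotid epithelium, submandibular epithelium, parotid mesenchyme and submandibular mesenchyme, with 4 libraries in each of the 4 groups. All came from wild type embryos of the outbred ICR strain labelled embryonic day 13, and the labels name no mutant allele and no added agent. Per the labels, the 4 replicates of each group were independent and biological. How many animals or glands went into a library is not stated in the sources used here. The design text mentions 6 days of culture while titles and protocol speak only of harvest at embryonic day 13, so whether tissue was cultured before RNA extraction cannot be told from the labels.

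As background, MMPs and ADAMTS proteases are zinc enzymes that cut proteins of the extracellular matrix. Most are made as inactive precursors and are freed by removal of a propeptide, and TIMPs block the active site of the mature enzyme. Salivary glands grow by repeated clefting of an epithelial bud inside mesenchyme, and cutting of the basement membrane between the layers is part of that process in the mouse. ADAMTS-like proteins share the matrix-binding domains of ADAMTS proteases and lack the catalytic domain.

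Gene counts summed to between 16912258 and 27646844 per library. The 42 members took 0.1283 to 0.1566% of them in parotid epithelium, 0.08815 to 0.1207% in submandibular epithelium, 0.4084 to 0.5847% in parotid mesenchyme and 0.4059 to 0.4236% in submandibular mesenchyme. Levels below are CPM, counts scaled to a common library size by the trimmed mean of M-values (TMM). The labelled layers carried their own markers: 12 epithelial markers summed to 3253 to 3818 CPM in parotid epithelium and 3024 to 3589 CPM in submandibular epithelium, against 16 to 56.7 CPM in parotid mesenchyme and 50.7 to 71.9 CPM in submandibular mesenchyme. Summed levels of 12 mesenchymal markers in epithelium were on average 0.985% of their level in mesenchyme in the parotid gland (0.329 to 1.62% by library) and 0.769% in the submandibular gland (0.179 to 2.06%). These markers summed to 95.2 to 468 CPM in parotid epithelium and 27.3 to 314 CPM in submandibular epithelium, highest in replicate 3 of each, and 5 of 12 were called higher in parotid epithelium. Macrophage and leukocyte markers summed to 20.2 to 35.5 CPM in parotid epithelium and 4.17 to 12.3 CPM in submandibular epithelium, with 9 of 12 called higher in parotid epithelium, against 88.5 to 154 CPM in parotid mesenchyme and 62.1 to 97.5 CPM in submandibular mesenchyme. Endothelial markers summed to 13.2 to 28.7 CPM in parotid epithelium and 12.9 to 19.1 CPM in submandibular epithelium, against 704 to 1088 CPM in parotid mesenchyme and 760 to 1076 CPM in submandibular mesenchyme. Of these 12 markers, 5 were called higher and 1 lower in parotid than in submandibular epithelium, with a median log2 fold change of 2.15, while Egfl7, with the highest CPM of them in both epithelia, averaged 8.94 CPM in the parotid layer, against 9.28 CPM in the submandibular one. Pericyte and smooth muscle markers were higher in parotid than in submandibular mesenchyme (595 to 852 CPM against 237 to 280 CPM, 8 of 10 called), as were skeletal muscle markers (381 to 1574 CPM against 170 to 363 CPM, 9 of 10 called). Erythroid markers summed to 59.8 to 495 CPM in parotid epithelium and 7.70 to 739 CPM in submandibular epithelium. Replicate 4 was highest in the first and replicate 1 in the second. In mesenchyme they summed to 1454 to 2194 CPM in the parotid and 3333 to 4185 CPM in the submandibular gland (1 of 9 called lower). Nerve and Schwann markers summed to 321 to 620 CPM in parotid mesenchyme, against 48 to 209 CPM in the submandibular one (3 of 10 called higher, 4 lower). What part these cell types had in the differences given below was not tested, and in bulk RNA fewer cells of a type and less RNA per cell cannot be told apart. Over all genes, 11.2% were called higher in parotid than in submandibular epithelium and 20.8% in parotid than in submandibular mesenchyme.

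Most tested members were higher in mesenchyme than in epithelium in each gland, and the exceptions are named below. Of the 38 tested members, 28 were lower in parotid epithelium than in parotid mesenchyme, where 33.5% of all 18191 genes tested were lower, and 3 were higher, where 31.4% were. In the submandibular gland 29 were lower in epithelium, where 33.7% of all genes were, and 3 were higher, where 33.3% were. The median log2 fold change of the tested members, epithelium over mesenchyme, was -1.97 in the parotid gland and -1.81 in the submandibular gland, while the median of all tested genes was -0.0044 and 0.014. A member counts as higher or lower where edgeR's quasi-likelihood test gave a Benjamini-Hochberg adjusted p under 0.05 over all 18191 genes. Libraries of the layers did not overlap for 29 tested members in the parotid gland, of which 3 were higher and 26 lower in epithelium, and for 30 in the submandibular gland, of which 2 were higher and 28 lower. Over all tested genes that share was 27.8% higher and 30% lower in the parotid gland, and 31.2% higher and 31.4% lower in the submandibular gland.

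Between the glands, 14 members were higher in parotid than in submandibular epithelium, where 11.2% of all genes were, and 5 were lower, where 9.72% were. In mesenchyme 12 members were higher in the parotid gland, where 20.8% of all genes were, and 7 were lower, where 13.7% were. The median log2 fold change of members, parotid over submandibular, was 0.23 in epithelium and 0.10 in mesenchyme, against -0.0016 and 0.036 over all genes. For 18 members the gland difference itself differed between the layers: 10 had a positive difference of differences (epithelium minus mesenchyme), where 8.67% of all genes did, and 8 a negative one, where 12.2% did.

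**Figure D1:**
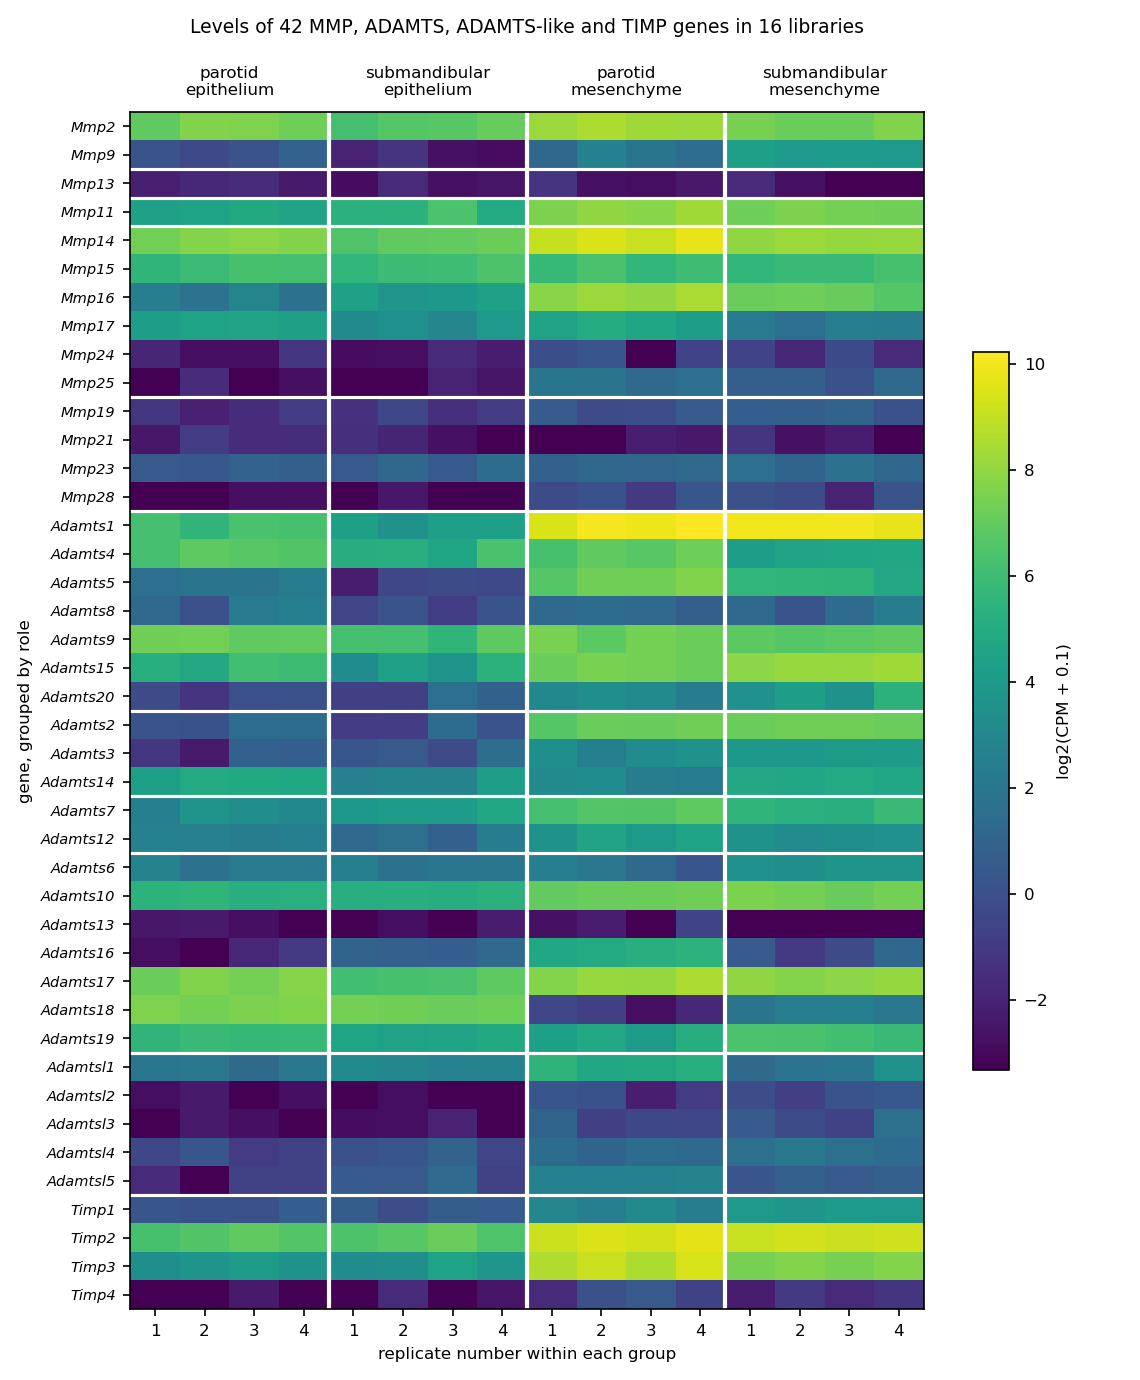
Levels of the 42 genes (down the page, grouped by role) in the 16 libraries (across, replicates 1 to 4 of each group), as log2(CPM + 0.1) on a colour scale from dark (low) to yellow (high). Most genes are brighter in the 8 mesenchyme libraries than in the 8 epithelium libraries, Adamts18 is brighter in epithelium, and Mmp15 has nearly the same colour throughout.

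A mean of at least 1 CPM was reached by 27 members in parotid epithelium and 29 in submandibular epithelium, against 33 in parotid mesenchyme and 35 in submandibular mesenchyme. At least 100 CPM was reached by 5 members in parotid epithelium and 4 in submandibular epithelium, against 14 in parotid mesenchyme and 12 in submandibular mesenchyme. Levels of different genes can be compared only after division by transcript length, here as CPM per kilobase of the union of exons in GENCODE M21. On that scale Mmp2 led in both epithelia, with 50.3 ± 11.3 in parotid and 31.1 ± 7.82 in submandibular epithelium (SD, n = 4), and its libraries overlapped those of the next gene, Mmp14 in the parotid and Timp2 in the submandibular layer. Adamts1 led in mesenchyme, with 185 ± 40.5 CPM per kilobase in parotid and 182 ± 11.2 in submandibular mesenchyme, followed by Timp2 with 178 ± 24.6 in parotid mesenchyme and 153 ± 8.50 in submandibular mesenchyme. The libraries of Adamts1 and Timp2 overlapped in parotid mesenchyme and were separate in submandibular mesenchyme.

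Summed over the 14 Mmp genes, levels per length were 111 ± 19.6 CPM per kilobase in parotid epithelium and 86.3 ± 15.8 in submandibular epithelium, against 349 ± 58.8 in parotid mesenchyme and 190.9 ± 7.98 in submandibular mesenchyme. The 4 TIMP genes summed to 28.2 ± 4.96 CPM per kilobase in parotid epithelium and 30.3 ± 7.24 in submandibular epithelium, against 248 ± 40.3 in parotid mesenchyme and 194 ± 9.77 in submandibular mesenchyme. The ratio of the TIMP sum to the MMP sum was 0.256 ± 0.0205 in parotid epithelium and 0.354 ± 0.0643 in submandibular epithelium, against 0.713 ± 0.0235 in parotid mesenchyme and 1.02 ± 0.0155 in submandibular mesenchyme. This ratio of transcript levels lay between 0.225 and 0.416 in the 8 epithelium libraries and between 0.678 and 1.03 in the 8 mesenchyme libraries, so the layers did not overlap. In mesenchyme the parotid libraries, 0.678 to 0.725, lay below the submandibular libraries, 0.995 to 1.03, while in epithelium the parotid libraries, 0.225 to 0.266, overlapped the submandibular ones, 0.265 to 0.416. No test was made on these sums. Summed ADAMTS levels were 109 ± 7.69 CPM per kilobase in parotid epithelium and 59.9 ± 13.8 in submandibular epithelium, against 346 ± 66.2 in parotid mesenchyme and 319.9 ± 4.31 in submandibular mesenchyme.

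**Figure D2:**
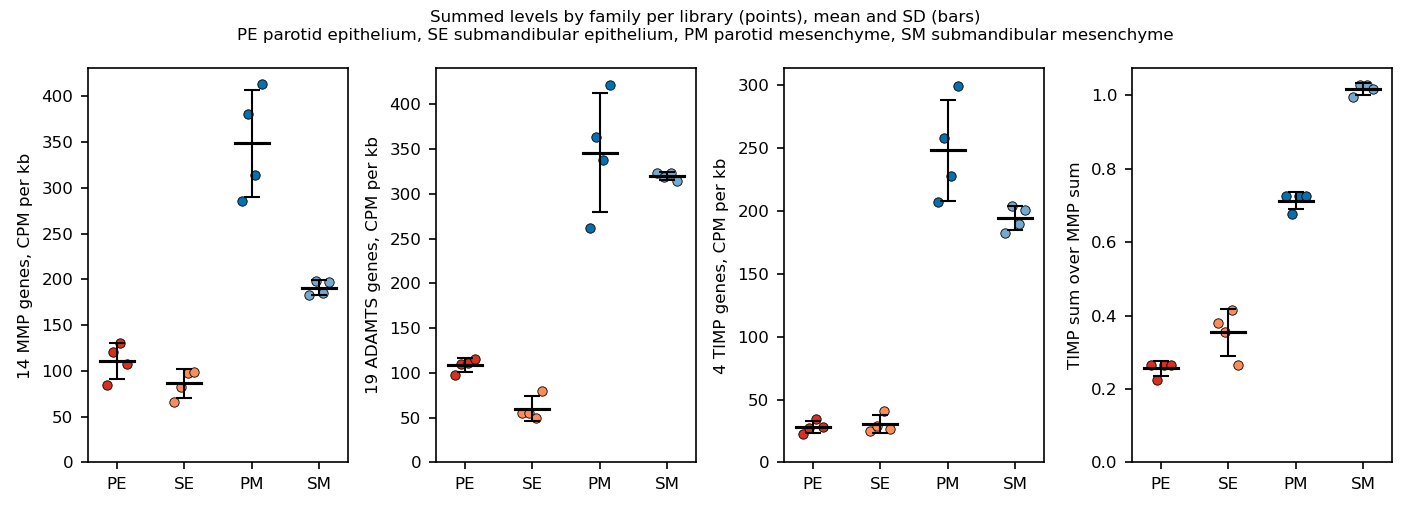
Summed CPM per kilobase of exon for the MMP, ADAMTS and TIMP genes and the ratio of the TIMP sum to the MMP sum, by library (points) with mean and SD (lines and bars, n = 4) for parotid epithelium (PE), submandibular epithelium (SE), parotid mesenchyme (PM) and submandibular mesenchyme (SM). The ratio is at most 0.416 in epithelium and at least 0.678 in mesenchyme.

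Promoter sequences are shown for 4 members with unlike patterns: Adamts18 was higher in epithelium of both glands, Adamts14 was higher in epithelium of one gland and in mesenchyme of the other, and Adamts1 and Timp1 were higher in mesenchyme of both. Each is the 250 bases before the gene's start in RefSeq's annotation of GRCm38.p6, written 5′ to 3′ on the gene's strand. Capitals mark matches on either strand to any of 4 motifs: the core promoter box TATAAA, the box named CCAAT, the GC box GGGCGG and the AP-1 site TGANTCA. Matches may overlap, and 2 GC boxes of Adamts14 share 1 base. The Adamts18 window is chr8:113848840-113849089 on the minus strand, the Adamts14 window chr10:61273420-61273669 on the minus strand, the Adamts1 window chr16:85803114-85803363 on the minus strand and the Timp1 window chrX:20869916-20870165 on the plus strand.
Adamts18: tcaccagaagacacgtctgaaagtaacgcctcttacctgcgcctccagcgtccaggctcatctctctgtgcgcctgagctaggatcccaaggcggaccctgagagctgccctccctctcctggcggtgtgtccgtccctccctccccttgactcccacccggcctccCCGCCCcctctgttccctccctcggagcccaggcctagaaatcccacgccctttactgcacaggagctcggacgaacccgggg
Adamts14: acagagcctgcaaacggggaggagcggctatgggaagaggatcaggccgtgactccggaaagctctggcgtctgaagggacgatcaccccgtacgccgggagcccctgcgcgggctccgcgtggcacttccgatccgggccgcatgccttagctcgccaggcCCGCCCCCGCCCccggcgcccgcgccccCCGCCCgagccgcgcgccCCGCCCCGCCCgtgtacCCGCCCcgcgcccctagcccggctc
Adamts1: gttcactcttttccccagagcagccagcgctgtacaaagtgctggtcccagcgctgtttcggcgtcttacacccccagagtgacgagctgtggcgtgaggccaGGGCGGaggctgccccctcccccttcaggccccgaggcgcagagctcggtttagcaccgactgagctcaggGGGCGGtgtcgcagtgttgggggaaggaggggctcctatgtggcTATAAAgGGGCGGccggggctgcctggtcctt
Timp1: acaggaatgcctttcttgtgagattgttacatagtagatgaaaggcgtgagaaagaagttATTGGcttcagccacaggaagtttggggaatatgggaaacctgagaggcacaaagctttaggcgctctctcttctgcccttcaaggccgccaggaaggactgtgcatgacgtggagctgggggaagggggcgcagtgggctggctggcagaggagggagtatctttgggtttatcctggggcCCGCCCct
RefSeq starts can differ from the gene ends given below, which are GENCODE's. The Adamts14 window held 6 GC box matches, Adamts1 held 3 with 1 TATAAA, Adamts18 held 1, and Timp1 held 1 with 1 CCAAT. RefSeq windows were found for 27 of the 42 members. A GC box match occurred for 74.1% of those 27 members and in 32.7% of all 32851 windows of that length, CCAAT in 18.5% against 33.8%, TATAAA in 14.8% against 12.4%, and the AP-1 letters in 3.7%, which was Mmp13 alone, against 6.75%. Members were counted by gene and the full set by window, with no matching by gene class or expression level. These shares therefore do not show a trait of the families. These matches describe letters in the windows and not bound sites.

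The gelatinases cut denatured collagen and the type IV collagen of basement membranes. Mmp2 (chr8:92827291-92853420 on the plus strand, GRCm38) had 124, 203, 199 and 154 CPM in parotid epithelium, against 74.3, 101, 105 and 139 CPM in submandibular epithelium. For Mmp2, parotid mesenchyme had 293, 379, 313 and 307 CPM, against 174, 142, 141 and 205 CPM in submandibular mesenchyme. Every parotid mesenchyme library lay above all others, and the epithelial libraries of the glands overlapped. Mmp2 was lower in epithelium than in mesenchyme in the parotid gland (log2 fold change -0.93, SE 0.18, edgeR adjusted p = 0.000309) and in the submandibular gland (log2 fold change -0.66, SE 0.18, edgeR adjusted p = 0.00474). It was higher in the parotid gland in epithelium (log2 fold change 0.69, SE 0.18, edgeR adjusted p = 0.0144) and in mesenchyme (log2 fold change 0.96, SE 0.18, edgeR adjusted p = 0.000675). The call in epithelium was lost without replicate 3 of parotid epithelium (edgeR adjusted p = 0.0507).

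Mmp9 (chr2:164940780-164955850 on the plus strand), the other gelatinase and a product of leukocytes and bone-resorbing osteoclasts, had 1.06, 0.704, 0.9898 and 1.83 CPM in parotid epithelium, against 0.144, 0.323, 0.05304 and 0.0367 CPM in submandibular epithelium. For Mmp9, parotid mesenchyme had 2.31, 6.03, 3.83 and 2.75 CPM, against 19.96, 15.4, 17.9 and 15.8 CPM in submandibular mesenchyme. None of the 4 groups overlapped, and submandibular mesenchyme was highest and submandibular epithelium lowest. Mmp9 was higher in parotid than in submandibular epithelium (log2 fold change 2.97, SE 0.50, edgeR adjusted p = 0.000525) and lower in parotid than in submandibular mesenchyme (log2 fold change -2.21, SE 0.35, edgeR adjusted p = 0.000106). The difference between these gland differences was 5.17 on the log2 scale (edgeR adjusted p = 1.14e-05). In all, 14 Mmp9 counts lay behind the submandibular epithelium value, and leaving out its replicate 2 moved the epithelial gland difference to 3.75, the submandibular layer difference to -7.65 and the difference of gland differences to 5.96. The 6 osteoclast markers summed to 37.9 to 52.1 CPM in parotid epithelium and 29.4 to 38.2 CPM in submandibular epithelium, against 61.1 to 103 CPM in parotid mesenchyme and 98.7 to 246 CPM in submandibular mesenchyme, and Ctsk made up most of the last sum, with 40.8 CPM in parotid mesenchyme and 175 CPM in submandibular mesenchyme. Nfatc1 of the same list averaged 31 CPM in parotid mesenchyme, against 10.2 CPM in submandibular mesenchyme. It was called higher in the parotid layer (log2 fold change 1.603, edgeR adjusted p = 0.00134). Dcstamp, which osteoclasts need in order to fuse, was at 0 in all 8 epithelium libraries and at most 0.2065 CPM in any mesenchyme library. Ctsk and Nfatc1 were called lower in epithelium in both glands. Tnfrsf11a was called higher in epithelium in both, with 28.2 against 4.85 CPM in the parotid layers and 13.8 against 3.70 CPM in the submandibular ones. Acp5 was called higher in epithelium in the parotid gland alone (15 against 5.12 CPM). Of the 12 macrophage and leukocyte markers given above, 3 were called higher in parotid mesenchyme, none lower and 9 in neither direction. The part of either list in the Mmp9 values was not tested. Mmp13, the collagenase of this set, was at 0.322 CPM or below in every library.

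Membrane-type MMPs are tethered to the cell surface, Mmp14, Mmp15, Mmp16 and Mmp24 by a transmembrane segment and Mmp17 and Mmp25 by a lipid anchor. Mmp14 (chr14:54431612-54445364 on the plus strand), which activates Mmp2 at the cell surface together with Timp2, had 161, 212, 235 and 201 CPM in parotid epithelium, against 92.2, 123, 126 and 148 CPM in submandibular epithelium. For Mmp14, parotid mesenchyme had 523, 718, 559 and 878 CPM, against 250.1, 310.3, 276 and 285 CPM in submandibular mesenchyme. No 2 groups overlapped, with parotid mesenchyme highest and submandibular epithelium lowest. Mmp14 was lower in epithelium in the parotid gland (log2 fold change -1.73, SE 0.17, edgeR adjusted p = 1.08e-07) and in the submandibular gland (log2 fold change -1.195, SE 0.17, edgeR adjusted p = 6.49e-06), and higher in the parotid gland both in epithelium (log2 fold change 0.72, SE 0.16, edgeR adjusted p = 0.00525) and in mesenchyme (log2 fold change 1.26, SE 0.17, edgeR adjusted p = 1.85e-05).

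Mmp16 (chr4:17852893-18119145 on the plus strand) showed gland differences of opposite sign in the layers. It had 5.38, 3.42, 7.07 and 3.28 CPM in parotid epithelium, against 21.9, 13.6, 14.8 and 21.6 CPM in submandibular epithelium. For Mmp16, parotid mesenchyme had 224, 293, 268 and 369 CPM, against 142, 149, 138 and 99.8 CPM in submandibular mesenchyme. All 4 groups were separate. Mmp16 was lower in parotid than in submandibular epithelium (log2 fold change -1.91, SE 0.25, edgeR adjusted p = 5.87e-05) and higher in parotid than in submandibular mesenchyme (log2 fold change 1.13, SE 0.22, edgeR adjusted p = 0.000778), with a difference of differences of -3.03 (edgeR adjusted p = 7.11e-06). Its level in epithelium was 1.66% of that in mesenchyme in the parotid gland and 13.6% in the submandibular gland.

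Mmp17 (chr5:129584169-129611099 on the plus strand) was higher in the parotid gland in both layers. It had 19.4, 23.03, 23.9 and 20.6 CPM in parotid epithelium, against 8.95, 11, 7.58 and 15.4 CPM in submandibular epithelium. For Mmp17, parotid mesenchyme had 22.4, 33.3, 26.1 and 19.5 CPM, against 4.696, 2.996, 5.42 and 5.17 CPM in submandibular mesenchyme. Parotid libraries lay above submandibular ones without overlap in each layer, while parotid epithelium and parotid mesenchyme overlapped. Its gland difference was smaller in epithelium (log2 fold change 1.01, SE 0.22, edgeR adjusted p = 0.0039) than in mesenchyme (log2 fold change 2.47, SE 0.23, edgeR adjusted p = 5.66e-07), a difference of -1.46 (edgeR adjusted p = 0.0032). Mmp17 was higher in epithelium than in mesenchyme in the submandibular gland (log2 fold change 1.23, SE 0.23, edgeR adjusted p = 0.000151), and the parotid layers did not pass the test (log2 fold change -0.22, SE 0.22, edgeR adjusted p = 0.381).

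Mmp15 (chr8:95352268-95375080 on the plus strand), the membrane-type MMP known from mouse submandibular branching through the release of type IV collagen fragments, passed no test. It had 46.8, 61.4, 79.5 and 76.3 CPM in parotid epithelium, against 48.4, 62.9, 65.6 and 86.2 CPM in submandibular epithelium. For Mmp15, parotid mesenchyme had 55, 81.9, 49.8 and 64.4 CPM, against 50.7, 57.6, 59.5 and 78.3 CPM in submandibular mesenchyme. The ranges of all 4 groups overlapped, and the 4 log2 fold changes lay between 0.005 and 0.10, each with SE 0.20. Mmp25 averaged 0.0707 ± 0.112 CPM in parotid epithelium, against 0.0581 ± 0.0757 CPM in submandibular epithelium, and 3.23 ± 0.584 CPM in parotid mesenchyme, against 1.67 ± 0.646 CPM in submandibular mesenchyme (SD, n = 4) and was lower in epithelium in both glands (edgeR adjusted p = 3.14e-06 in the parotid and 1.6e-05 in the submandibular gland). With 6 counts in all of parotid epithelium, the parotid log2 fold change of Mmp25, -5.43, moved to -7.26 without replicate 2 of that group, and the submandibular one, -4.86 with 5 counts in submandibular epithelium, moved to -5.78 without its replicate 3. Mmp24 was at 1.096 CPM or below in every library and was called lower in parotid epithelium (log2 fold change -1.99, SE 0.85, edgeR adjusted p = 0.0492), a call lost in 14 of the 16 fits that left out 1 library, where the adjusted p reached 0.151, with limma-voom (0.408), library totals alone (0.0515) and no filter on low counts (0.0572), and its value was -2.69 without replicate 4 of parotid epithelium. In the submandibular gland Mmp24 did not pass in the main test (edgeR adjusted p = 0.051). It was called lower in epithelium with RLE scaling (0.0453), library totals alone (0.0398) and DESeq2 (0.0458), and without replicate 4 of parotid epithelium, replicate 3 of submandibular epithelium, replicate 3 of parotid mesenchyme, or replicate 2 or 4 of submandibular mesenchyme (adjusted p 0.0125 to 0.0484).

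Among the secreted MMPs outside these classes, Mmp11 (chr10:75923222-75936496 on the minus strand), which is freed of its propeptide by furin inside the cell, had the highest level per length. It had 21.4, 23.3, 30.6 and 24.5 CPM in parotid epithelium, against 40.7, 41.6, 83.6 and 31.1 CPM in submandibular epithelium. For Mmp11, parotid mesenchyme had 189.8, 251, 224 and 317 CPM, against 153, 193, 170.3 and 155 CPM in submandibular mesenchyme. Both mesenchymes lay above both epithelia without overlap, and within submandibular epithelium replicate 3, the library with most mesenchymal marker signal of its group, was highest. The part of mesenchymal cells in that Mmp11 value was not tested. Mmp11 was lower in epithelium in the parotid (log2 fold change -3.298, SE 0.26, edgeR adjusted p = 1.93e-08) and submandibular gland (log2 fold change -1.77, SE 0.25, edgeR adjusted p = 9.37e-06). It was lower in parotid than in submandibular epithelium (log2 fold change -0.98, SE 0.24, edgeR adjusted p = 0.0112), and the gland difference in mesenchyme, 0.55, did not pass with all libraries (edgeR adjusted p = 0.087). It did without replicate 3 of submandibular epithelium (0.00922), with limma-voom (0.0426) and in a fit of the 8 mesenchyme libraries alone (0.0227). Mmp19 and Mmp28 had means of at most 1.52 CPM and were lower in epithelium in both glands. For Mmp28, 2 counts lay behind each epithelial group, so no fold is given. Mmp23 averaged 1.47 ± 0.294 CPM in parotid epithelium, against 1.87 ± 0.693 CPM in submandibular epithelium, and 2.15 ± 0.328 CPM in parotid mesenchyme, against 2.597 ± 0.604 CPM in submandibular mesenchyme and passed none of the 4 tests between pairs of groups, except lower in submandibular epithelium when replicate 4 of that group was left out (edgeR adjusted p = 0.0406). Mmp21 was at 0.422 CPM or below in every library. The library kit does not mark the strand, so reads of Mmp11, Mmp19, Mmp24 and Mmp28 cannot be told apart from those of genes on the opposite strand that share 5.58%, 22.3%, 13.6% and 12.03% of their exon bases, which are Chchd10, Tmem198b, BC029722 and 1700020L24Rik in turn.

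The ADAMTS proteases that cut versican, aggrecan and related proteoglycans, Adamts1, Adamts4, Adamts5, Adamts8, Adamts9, Adamts15 and Adamts20, included 6 of 7 called higher in parotid than in submandibular epithelium, where 11.2% of all genes were, and none called lower. Of these, Adamts4, Adamts8 and Adamts15 lost the call without replicate 4 of parotid epithelium and replicate 1 of submandibular epithelium together (edgeR adjusted p = 0.0777, 0.0851 and 0.17). Of the markers given above, 5 of 12 mesenchymal and 9 of 12 macrophage and leukocyte genes were also called higher in parotid epithelium, and their part in these differences was not tested. In mesenchyme 2 of 7 were higher in the parotid gland, where 20.8% of all genes were, and 1 was lower, where 13.7% were. In the parotid gland 4 of 7 were lower in epithelium than in mesenchyme, where 33.5% of all genes were. In the submandibular gland 6 of 7 were lower, where 33.7% of all genes were, and 1 was higher, where 33.3% were.

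Adamts1 (chr16:85793827-85803113 on the minus strand) had 75.4, 46.9, 80.2 and 78.9 CPM in parotid epithelium, against 21.1, 11.8, 20.2 and 20.4 CPM in submandibular epithelium. For Adamts1, parotid mesenchyme had 702, 1059, 944 and 1211 CPM, against 990.4, 987, 1009 and 878 CPM in submandibular mesenchyme. The mesenchymes overlapped each other, with 702 CPM or more in every library, and lay far above the epithelia, which did not overlap each other. Adamts1 was higher in parotid than in submandibular epithelium (log2 fold change 1.94, SE 0.20, edgeR adjusted p = 7.79e-06), with no gland difference called in mesenchyme (log2 fold change 0.02, SE 0.19, edgeR adjusted p = 0.954) and a difference between these of 1.92 (edgeR adjusted p = 0.000121). Its epithelial level was 7.19% of the mesenchymal level in the parotid gland and 1.902% in the submandibular gland, against 0.985% and 0.769% for the summed mesenchymal markers. The part of mesenchymal cells in the epithelial Adamts1 level was not tested. Adamts5 (chr16:85856173-85901828 on the minus strand), its neighbour 53.1 kb away on chromosome 16, had 2.97, 3.66, 3.63 and 5.11 CPM in parotid epithelium, against 0.108, 0.645, 0.743 and 0.697 CPM in submandibular epithelium. For Adamts5, parotid mesenchyme had 101, 157, 155 and 202 CPM, against 47.9, 47.6, 45.6 and 28.9 CPM in submandibular mesenchyme. All 4 groups were separate, and the parotid group was the higher in each layer. The gland difference of Adamts5 was called in epithelium (log2 fold change 2.84, SE 0.37, edgeR adjusted p = 7.12e-05) and in mesenchyme (log2 fold change 1.85, SE 0.25, edgeR adjusted p = 2.95e-05). Its epithelial level was 2.499% of the mesenchymal level in the parotid gland and 1.29% in the submandibular gland, with 52 counts in all behind the submandibular value, and the part of mesenchymal cells in it was not tested.

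Adamts4 (chr1:171250421-171260637 on the plus strand) had 76.03, 118, 104 and 93.4 CPM in parotid epithelium, against 35.4, 37.8, 26.1 and 82.7 CPM in submandibular epithelium. For Adamts4, parotid mesenchyme had 79.4, 122, 105 and 151 CPM, against 18.99, 23.8, 26.4 and 26.9 CPM in submandibular mesenchyme. Submandibular mesenchyme lay below both parotid groups and overlapped submandibular epithelium, whose replicate 4 was above the other 3 libraries of its group and overlapped parotid epithelium. Adamts4 was higher in the parotid gland in epithelium (log2 fold change 1.103, SE 0.29, edgeR adjusted p = 0.0147) and mesenchyme (log2 fold change 2.25, SE 0.30, edgeR adjusted p = 3.63e-05), and higher in epithelium than in mesenchyme in the submandibular gland (log2 fold change 0.92, SE 0.29, edgeR adjusted p = 0.0116). Without replicate 1 of submandibular epithelium the first of these had an edgeR adjusted p of 0.0526, and without replicate 4 the last fell to 0.45 with an adjusted p of 0.0646. With no filter on low counts that last call was lost as well (0.0555). Adamts9 (chr6:92772699-92943492 on the minus strand) had 159, 166, 122 and 129 CPM in parotid epithelium, against 75.97, 76.5, 47.05 and 117 CPM in submandibular epithelium. For Adamts9, parotid mesenchyme had 184, 115, 167 and 146 CPM, against 112, 102, 110.3 and 121 CPM in submandibular mesenchyme. Its parotid epithelium lay above submandibular epithelium in all libraries, parotid mesenchyme overlapped both epithelia, and submandibular mesenchyme overlapped submandibular epithelium. Adamts9 was higher in parotid epithelium (log2 fold change 0.86, SE 0.21, edgeR adjusted p = 0.00821). Its call as lower in submandibular epithelium than mesenchyme (log2 fold change -0.49, SE 0.21, edgeR adjusted p = 0.0443) was lost without replicate 1, 2 or 3 of submandibular epithelium or any replicate of submandibular mesenchyme, with adjusted p from 0.0508 to 0.117, with no filter on low counts (0.0667) and in a fit of the 8 submandibular libraries alone (0.0678). Its gland difference in mesenchyme did not pass with all libraries (edgeR adjusted p = 0.0974), and did without replicate 3 or 4 of submandibular epithelium (0.0382 and 0.038) and in a fit of the 8 mesenchyme libraries alone (0.0416). Exons of Adamts9 overlap a gene on the opposite strand, A730049H05Rik, over 9.18% of their bases.

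Adamts15 (chr9:30899155-30922452 on the minus strand) had 37.7, 28.9, 69.5 and 63.5 CPM in parotid epithelium, against 9.56, 21.6, 12.9 and 41.7 CPM in submandibular epithelium. For Adamts15, parotid mesenchyme had 140.3, 179.7, 171 and 148 CPM, against 239, 282, 284 and 312 CPM in submandibular mesenchyme. Submandibular mesenchyme was highest in all 4 libraries, and the epithelia overlapped, with replicate 4 of submandibular epithelium the highest of its group. Adamts15 was lower in epithelium in the parotid (log2 fold change -1.68, SE 0.37, edgeR adjusted p = 0.000993) and submandibular gland (log2 fold change -3.698, SE 0.40, edgeR adjusted p = 1.03e-06). The call as higher in parotid than submandibular epithelium (log2 fold change 1.21, SE 0.37, edgeR adjusted p = 0.0326) was lost without replicate 3 or 4 of parotid epithelium or replicate 1, 2 or 3 of submandibular epithelium, with adjusted p from 0.0635 to 0.102, with no filter on low counts (0.0796) and in a fit of the 8 epithelium libraries alone (0.116). The gland difference in mesenchyme, -0.81, did not pass in the main test (edgeR adjusted p = 0.0987), though parotid mesenchyme lay below submandibular mesenchyme in all libraries. It passed in a fit of the 8 mesenchyme libraries alone (7.87e-05), with limma-voom (0.024), with library totals alone (0.0452) and without replicate 4 of submandibular epithelium (0.0249). Adamts8, 20.1 kb from Adamts15 on chromosome 9, averaged 3.404 ± 2.14 CPM in parotid epithelium, against 0.781 ± 0.279 CPM in submandibular epithelium, and 2.28 ± 0.450 CPM in parotid mesenchyme, against 2.79 ± 1.73 CPM in submandibular mesenchyme, and was higher in parotid than in submandibular epithelium (log2 fold change 2.101, SE 0.51, edgeR adjusted p = 0.00852). An antisense gene shares 10.6% of the exon bases of Adamts8. Adamts20 had 0.806, 0.328, 0.896 and 0.915 CPM in parotid epithelium, against 0.503, 0.484, 3.02 and 1.76 CPM in submandibular epithelium. For Adamts20, parotid mesenchyme had 7.94, 10.9, 8.69 and 5.04 CPM, against 11.4, 19.6, 12.1 and 41.9 CPM in submandibular mesenchyme. Its submandibular mesenchyme value was widely spread, with replicate 4 the highest. Adamts20 was lower in epithelium in both glands (log2 fold change -3.46 and -3.92), and in mesenchyme lower in the parotid gland (log2 fold change -1.39, SE 0.50, edgeR adjusted p = 0.0407), a call lost without replicate 1, 3 or 4 of parotid mesenchyme or replicate 2 or 4 of submandibular mesenchyme (adjusted p 0.0641 to 0.197) and with no filter on low counts (0.113). The submandibular layer difference was -4.53 without replicate 3 of submandibular epithelium.

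The procollagen N-proteinases Adamts2, Adamts3 and Adamts14 remove the amino-terminal propeptide of fibrillar procollagens, and Adamts3 also helps to activate the lymphatic growth factor Vegfc. Adamts14 (chr10:61197112-61273438 on the minus strand) had 21.2, 31.5, 30.1 and 27.8 CPM in parotid epithelium, against 6.004, 6.73, 6.68 and 18.4 CPM in submandibular epithelium. For Adamts14, parotid mesenchyme had 8.69, 9.64, 5.29 and 4.62 CPM, against 28.6, 28.1, 31.2 and 27.6 CPM in submandibular mesenchyme. Parotid epithelium and submandibular mesenchyme were high, submandibular epithelium and parotid mesenchyme low, and the high and low groups did not overlap. Adamts14 was higher in epithelium than in mesenchyme in the parotid gland (log2 fold change 1.98, SE 0.32, edgeR adjusted p = 4.34e-05) and lower in epithelium in the submandibular gland (log2 fold change -1.61, SE 0.31, edgeR adjusted p = 0.000257). Between glands it was higher in parotid epithelium (log2 fold change 1.54, SE 0.31, edgeR adjusted p = 0.00257) and lower in parotid mesenchyme (log2 fold change -2.04, SE 0.32, edgeR adjusted p = 0.000125). The difference of the gland differences was 3.58 (SE 0.45, edgeR adjusted p = 2.83e-05). The parotid epithelial level was 392% of that in parotid mesenchyme.

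Adamts2 (chr11:50602084-50807573 on the plus strand) had 1.02, 0.985, 2.83 and 2.698 CPM in parotid epithelium, against 0.431, 0.443, 2.55 and 1.03 CPM in submandibular epithelium. For Adamts2, parotid mesenchyme had 101, 139, 137 and 158 CPM, against 146, 155, 156 and 139 CPM in submandibular mesenchyme. Both mesenchymes lay far above both epithelia, and the glands overlapped within each layer. Adamts2 was lower in epithelium in the parotid (log2 fold change -6.16, SE 0.41, edgeR adjusted p = 4.39e-09) and submandibular gland (log2 fold change -7.16, SE 0.44, edgeR adjusted p = 1.44e-09). Its epithelial level was 1.41% of the mesenchymal level in the parotid gland and 0.746% in the submandibular gland, values within the library ranges given above for the summed mesenchymal markers. The highest epithelial value of each gland was in replicate 3, as for those markers, though in the parotid gland replicate 4 was close (2.83 and 2.698 CPM). The part of mesenchymal cells in the epithelial Adamts2 level was not tested. Without replicate 3 of submandibular epithelium, the epithelial gland difference of Adamts2 was 1.56 (edgeR adjusted p = 0.0168), against 0.84 (adjusted p = 0.23) with all libraries, and the submandibular layer difference was -7.87. Adamts3 had 0.339, 0.0938, 1.74 and 1.59 CPM in parotid epithelium, against 1.15, 1.29, 0.743 and 2.93 CPM in submandibular epithelium. For Adamts3, parotid mesenchyme had 10.7, 5.698, 9.75 and 11.9 CPM, against 14.7, 14.8, 16.9 and 18.2 CPM in submandibular mesenchyme. The epithelia overlapped each other and lay below both mesenchymes. Adamts3 was lower in epithelium in the parotid (log2 fold change -3.34, SE 0.55, edgeR adjusted p = 5.53e-05) and submandibular gland (log2 fold change -3.38, SE 0.53, edgeR adjusted p = 3.13e-05).

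Adamts7 and Adamts12 both cut the cartilage matrix protein COMP. Adamts7 (chr9:90163069-90208071 on the plus strand) had 5.68, 13.1, 10.1 and 7.902 CPM in parotid epithelium, against 15.03, 17.1, 17.8 and 27.1 CPM in submandibular epithelium. For Adamts7, parotid mesenchyme had 76.7, 98.2, 95.2 and 118 CPM, against 47.1, 38.8, 35.7 and 56.96 CPM in submandibular mesenchyme. No 2 groups overlapped, and the order of the glands was reversed between the layers. Adamts7 was lower in parotid than in submandibular epithelium (log2 fold change -1.07, SE 0.24, edgeR adjusted p = 0.00505) and higher in parotid than in submandibular mesenchyme (log2 fold change 1.12, SE 0.23, edgeR adjusted p = 0.00112), a difference of -2.19 (edgeR adjusted p = 0.000172). Adamts12 averaged 5.77 ± 0.315 CPM in parotid epithelium, against 3.07 ± 1.41 CPM in submandibular epithelium, and 19.04 ± 5.66 CPM in parotid mesenchyme, against 10.8 ± 1.11 CPM in submandibular mesenchyme and was lower in epithelium in both glands (log2 fold change -1.72 and -1.81). It was called higher in the parotid gland in epithelium (log2 fold change 0.90, SE 0.27, edgeR adjusted p = 0.0258) and mesenchyme (log2 fold change 0.81, SE 0.26, edgeR adjusted p = 0.0206), but the first call was lost without replicate 2 of parotid epithelium or replicate 1, 2 or 3 of submandibular epithelium (adjusted p 0.0503 to 0.0809) and the second without replicate 2 or 4 of parotid mesenchyme or replicate 2 of submandibular mesenchyme (0.0609 to 0.0712). Library totals alone as scaling also ended the second call (0.0572), and a fit of the 8 epithelium libraries alone the first (0.0531).

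Adamts16 and Adamts18 are close relatives in sequence. Adamts18 (chr8:113697126-113848738 on the minus strand), whose gene is active at branching tips of the mouse kidney, was the only tested member called higher in epithelium in both glands. It had 193, 170.1, 190.5 and 201 CPM in parotid epithelium, against 172, 159, 144 and 151 CPM in submandibular epithelium. For Adamts18, parotid mesenchyme had 0.644, 0.493, 0.0395 and 0.187 CPM, against 3.62, 5.49, 5.73 and 4.25 CPM in submandibular mesenchyme. No epithelium library was below 144 CPM and no mesenchyme library above 5.73 CPM, and the epithelia of the glands overlapped. Adamts18 was higher in epithelium in the parotid gland (log2 fold change 9.201, SE 0.30, edgeR adjusted p = 6.36e-13) and in the submandibular gland (log2 fold change 5.03, SE 0.22, edgeR adjusted p = 9.59e-12), with 26 counts in all behind the parotid mesenchyme value. The glands did not differ by the test in epithelium (log2 fold change 0.27, SE 0.18, edgeR adjusted p = 0.306), and Adamts18 was lower in parotid than in submandibular mesenchyme (log2 fold change -3.899, SE 0.32, edgeR adjusted p = 1.34e-07). In mesenchyme the epithelial markers summed to 16 to 56.7 CPM in the parotid gland and 50.7 to 71.9 CPM in the submandibular gland. Epcam had the highest mean of them there, at 11.8 CPM for parotid mesenchyme, against 35.3 CPM for submandibular mesenchyme. Of the 12 markers, 2 were called lower in parotid mesenchyme, Epcam among them, none higher and 10 in neither direction. Their median log2 fold change, parotid over submandibular mesenchyme, was 0.222. The part of epithelial cells in the mesenchymal Adamts18 level was not tested.

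Adamts16 (chr13:70727802-70841811 on the minus strand) was concentrated in parotid mesenchyme. It had 0.0424, 0, 0.189 and 0.386 CPM in parotid epithelium, against 1.91, 1.69, 1.59 and 2.38 CPM in submandibular epithelium. For Adamts16, parotid mesenchyme had 26.99, 31.3, 36.2 and 43.5 CPM, against 1.38, 0.3995, 0.774 and 2.34 CPM in submandibular mesenchyme. Parotid mesenchyme had at least 26.99 CPM in every library and the other groups at most 2.38 CPM, submandibular epithelium and submandibular mesenchyme overlapped, and parotid epithelium was lowest with 13 counts in all. Adamts16 was lower in epithelium than in mesenchyme in the parotid gland (log2 fold change -7.79, SE 0.56, edgeR adjusted p = 3.6e-09), and the submandibular layers did not pass the test (log2 fold change 0.64, SE 0.44, edgeR adjusted p = 0.207) except without replicate 4 of submandibular mesenchyme (1.16, adjusted p = 0.0302). It was lower in parotid epithelium than in submandibular epithelium (log2 fold change -3.61, SE 0.58, edgeR adjusted p = 0.000407) and higher in parotid than in submandibular mesenchyme (log2 fold change 4.82, SE 0.45, edgeR adjusted p = 5.09e-07). The difference of the gland differences, -8.43 (edgeR adjusted p = 4.67e-07), was the largest of the 38 tested members in absolute size. Leaving out replicate 4 of parotid epithelium, the highest of its group, moved the epithelial gland difference to -4.53, the parotid layer difference to -8.72, and the difference of gland differences to -9.35.

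Adamts19, an ADAMTS protease whose substrate is not established, had 47.1, 56.6, 51.99 and 53.3 CPM in parotid epithelium, against 25.3, 22.6, 23.9 and 29.8 CPM in submandibular epithelium. For Adamts19, parotid mesenchyme had 20.5, 28.98, 16.9 and 34.7 CPM, against 84.6, 80.6, 71.4 and 59.2 CPM in submandibular mesenchyme. Submandibular mesenchyme was highest in all 4 libraries and parotid epithelium next, while submandibular epithelium and parotid mesenchyme overlapped below them. Adamts19 was higher in epithelium than in mesenchyme in the parotid gland (log2 fold change 1.05, SE 0.18, edgeR adjusted p = 6.51e-05) and lower in epithelium in the submandibular gland (log2 fold change -1.54, SE 0.18, edgeR adjusted p = 9.08e-07). The gland differences had opposite signs in epithelium (log2 fold change 1.04, SE 0.18, edgeR adjusted p = 0.000625) and mesenchyme (log2 fold change -1.55, SE 0.18, edgeR adjusted p = 5.03e-06), with a difference of 2.59 (edgeR adjusted p = 2.03e-06).

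Adamts17, Adamts10 and Adamts6 act on fibrillin microfibrils. Adamts17 (chr7:66839735-67153171 on the plus strand) had 144, 207, 172 and 222 CPM in parotid epithelium, against 70.8, 77.95, 80.2 and 118 CPM in submandibular epithelium. For Adamts17, parotid mesenchyme had 210.0, 284, 278 and 381 CPM, against 252, 209, 235 and 276 CPM in submandibular mesenchyme. Parotid epithelium was above submandibular epithelium in all libraries, and the mesenchymes overlapped. Adamts17 was higher in parotid epithelium (log2 fold change 1.101, SE 0.19, edgeR adjusted p = 0.00059). It was lower in epithelium than in mesenchyme in the parotid gland (log2 fold change -0.63, SE 0.18, edgeR adjusted p = 0.00654) and in the submandibular gland (log2 fold change -1.49, SE 0.19, edgeR adjusted p = 2.6e-06). The parotid layers overlapped, and the parotid call was lost when a change beyond 1.5-fold was required (edgeR adjusted p = 0.353). Adamts10 averaged 42.01 ± 4.197 CPM in parotid epithelium, against 37.6 ± 2.87 CPM in submandibular epithelium, and 143 ± 11.8 CPM in parotid mesenchyme, against 166 ± 20.1 CPM in submandibular mesenchyme, was lower in epithelium in both glands (log2 fold change -1.77 and -2.14), and passed neither gland test with all libraries. In mesenchyme it was called lower in the parotid gland without replicate 3 of submandibular mesenchyme (edgeR adjusted p = 0.0366), with library totals alone as scaling (0.0054), with a stricter filter on low counts (0.0359) and in a fit of the 8 mesenchyme libraries alone (0.0401). Adamts6 had 6.57, 3.38, 4.62 and 4.48 CPM in parotid epithelium, against 5.64, 3.23, 3.98 and 3.92 CPM in submandibular epithelium. For Adamts6, parotid mesenchyme had 5.47, 4.27, 2.45 and 1.12 CPM, against 11.7, 10.9, 12.7 and 12.7 CPM in submandibular mesenchyme. Submandibular mesenchyme lay above the other 3 groups, which overlapped. Adamts6 was lower in parotid than in submandibular mesenchyme (log2 fold change -1.86, SE 0.35, edgeR adjusted p = 0.000519) and lower in submandibular epithelium than mesenchyme (log2 fold change -1.51, SE 0.34, edgeR adjusted p = 0.000836). Its parotid layers, 0.53, passed only without replicate 1 of parotid mesenchyme (edgeR adjusted p = 0.0353). Adamts13, the protease of von Willebrand factor, was at 0.56 CPM or below in every library.

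Of the ADAMTS-like genes, several of which bind fibrillin microfibrils, all 5 were lower in epithelium in the parotid gland, where 33.5% of all genes were. In the submandibular gland 3 of 5 were lower, where 33.7% of all genes were. Adamtsl1 (chr4:85514172-86428385 on the plus strand) had 3.94, 4.03, 2.498 and 4.24 CPM in parotid epithelium, against 8.66, 7.66, 6.37 and 6.71 CPM in submandibular epithelium. For Adamtsl1, parotid mesenchyme had 44.8, 27.4, 29.9 and 38.1 CPM, against 2.45, 3.54, 3.97 and 11.3 CPM in submandibular mesenchyme. Parotid mesenchyme was above all other libraries, the epithelia did not overlap each other, and replicate 4 of submandibular mesenchyme was the highest of its group. Adamtsl1 was lower in parotid epithelium than in parotid mesenchyme (log2 fold change -3.25, SE 0.37, edgeR adjusted p = 7.33e-07) and higher in parotid than in submandibular mesenchyme (log2 fold change 2.73, SE 0.36, edgeR adjusted p = 1.99e-05). Without replicate 4 of submandibular mesenchyme the last value was 3.397 and the difference of gland differences was -4.395, against -3.72 with all libraries. In that fit Adamtsl1 was called higher in submandibular epithelium than mesenchyme (1.15, edgeR adjusted p = 0.000438) and lower in parotid than submandibular epithelium (adjusted p = 0.00364). With all libraries those calls were absent (adjusted p = 0.24 and 0.0548), and the epithelial call was also made without replicate 1 of submandibular mesenchyme (0.0342), with DESeq2 (0.0227), with limma-voom (0.0461) and in a fit of the 8 epithelium libraries alone (0.00781).

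Adamtsl5 (chr10:80339110-80348412 on the minus strand) had 0.212, 0, 0.518 and 0.530 CPM in parotid epithelium, against 1.402, 1.29, 2.55 and 0.550 CPM in submandibular epithelium. For Adamtsl5, parotid mesenchyme had 6.17, 6.14, 6.04 and 6.58 CPM, against 1.07, 1.698, 1.39 and 1.69 CPM in submandibular mesenchyme. Parotid mesenchyme was again highest, without overlap. Adamtsl5 was lower in parotid epithelium than mesenchyme (log2 fold change -4.29, SE 0.54, edgeR adjusted p = 2.43e-06), lower in parotid than in submandibular epithelium (log2 fold change -2.17, SE 0.55, edgeR adjusted p = 0.0103) and higher in parotid than in submandibular mesenchyme (log2 fold change 2.09, SE 0.47, edgeR adjusted p = 0.00218). In a fit of the 8 epithelium libraries alone the epithelial gland difference had an adjusted p of 0.0501. The difference of these gland differences was -4.26 (edgeR adjusted p = 0.000425). Adamtsl2, Adamtsl3 and Adamtsl4 had means of at most 3.25 CPM and were lower in epithelium in both glands, and for Adamtsl2 and Adamtsl3, with at most 5 counts in all in an epithelial group, no fold is given.

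The 3 tested TIMPs were lower in epithelium in both glands, where 25.7% of all tested genes were, and none differed between the epithelia by the test. Timp3 (chr10:86300372-86349506 on the plus strand), which stays bound to matrix and inhibits ADAMTS and ADAM proteases as well as MMPs, had 10.8, 12.99, 17.6 and 12.6 CPM in parotid epithelium, against 9.46, 10.6, 23.4 and 13.9 CPM in submandibular epithelium. For Timp3, parotid mesenchyme had 402, 577, 374 and 695 CPM, against 177, 208, 178 and 213 CPM in submandibular mesenchyme. Parotid mesenchyme was highest in all libraries, and the epithelia overlapped. Timp3 was lower in epithelium in the parotid (log2 fold change -5.25, SE 0.30, edgeR adjusted p = 5.15e-10) and submandibular gland (log2 fold change -3.77, SE 0.28, edgeR adjusted p = 9.31e-09), and higher in parotid than in submandibular mesenchyme (log2 fold change 1.401, SE 0.25, edgeR adjusted p = 0.00045). Syn3, in whose intron Timp3 lies, runs on the opposite strand and shares 21.3% of the Timp3 exon bases.

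Timp1 (chrX:20870166-20874735 on the plus strand) had 1.15, 0.985, 0.943 and 1.59 CPM in parotid epithelium, against 1.51, 0.846, 1.49 and 1.43 CPM in submandibular epithelium. For Timp1, parotid mesenchyme had 7.67, 5.64, 8.88 and 5.18 CPM, against 15.9, 13.98, 17.2 and 16.2 CPM in submandibular mesenchyme. Its gland order in mesenchyme was opposite to that of Timp3, since every submandibular mesenchyme library lay above every parotid one. Timp1 was lower in epithelium in the parotid (log2 fold change -2.55, SE 0.24, edgeR adjusted p = 7.99e-08) and submandibular gland (log2 fold change -3.58, SE 0.24, edgeR adjusted p = 1.27e-09), and lower in parotid than in submandibular mesenchyme (log2 fold change -1.21, SE 0.22, edgeR adjusted p = 0.000369). Timp2 (chr11:118301069-118355740 on the minus strand), the partner of Mmp14 in activation of Mmp2, had 77.7, 94.95, 122 and 98.01 CPM in parotid epithelium, against 86.2, 104, 142 and 89.7 CPM in submandibular epithelium. For Timp2, parotid mesenchyme had 579.6, 705, 669 and 812 CPM, against 557, 632, 579 and 609.6 CPM in submandibular mesenchyme. The glands overlapped in each layer and the layers did not. Timp2 was lower in epithelium in the parotid (log2 fold change -2.82, SE 0.16, edgeR adjusted p = 1.85e-10) and submandibular gland (log2 fold change -2.495, SE 0.16, edgeR adjusted p = 5.92e-10), at 14.2% and 17.8% of its mesenchymal level. Timp4 was at 1.26 CPM or below in every library, highest in parotid mesenchyme.

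**Figure D3:**
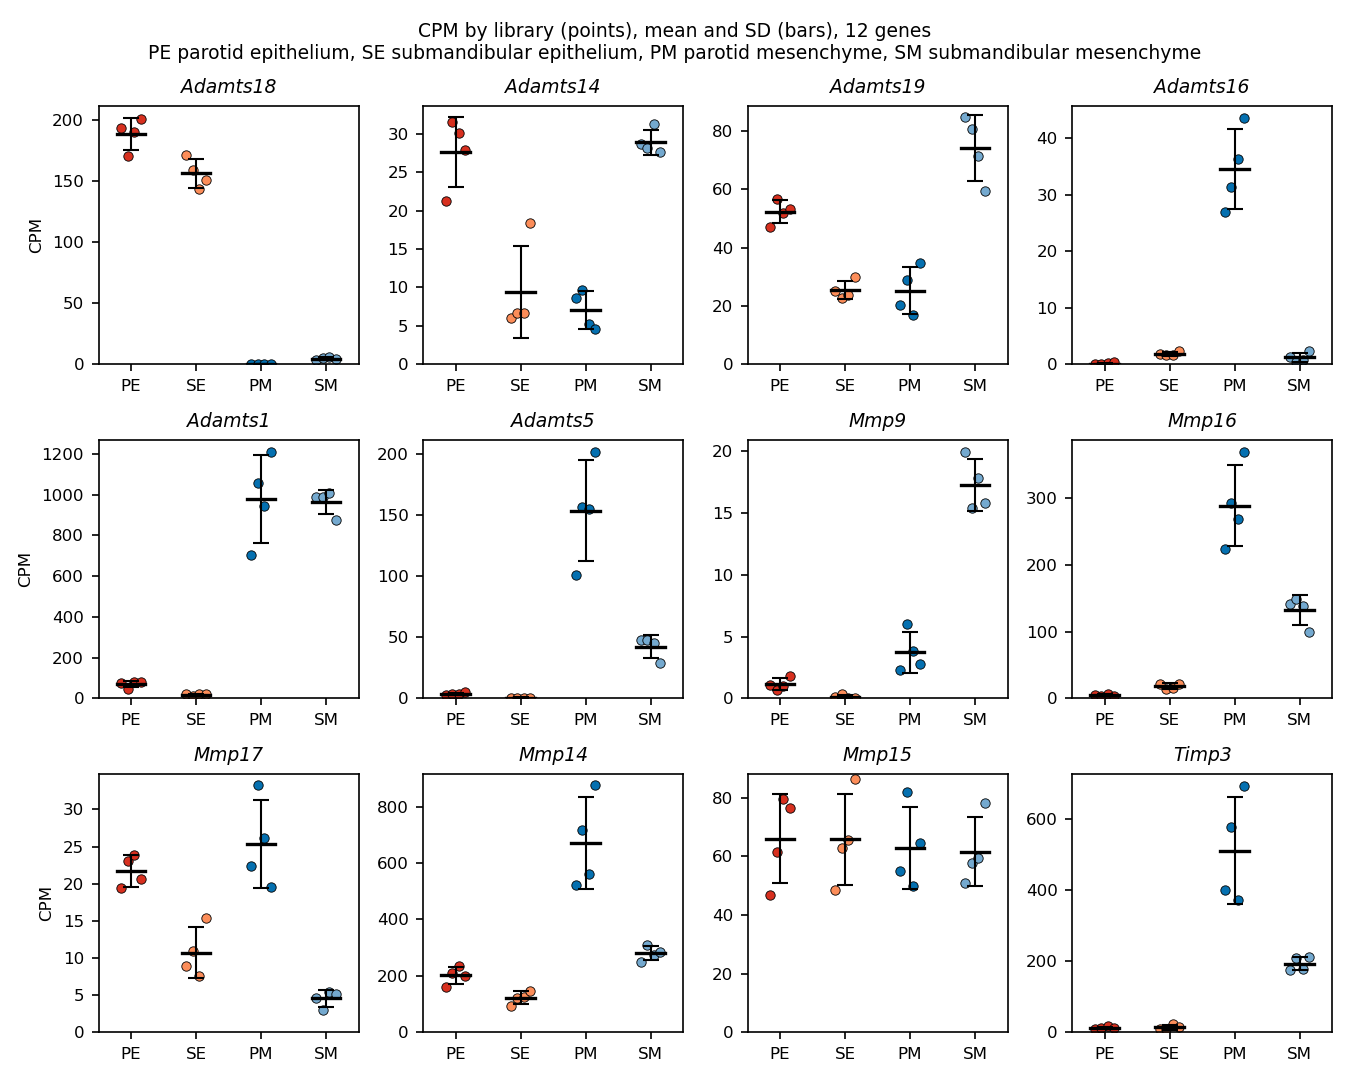
CPM by library (points) with mean and SD (lines and bars, n = 4) for 12 of the genes in parotid epithelium (PE), submandibular epithelium (SE), parotid mesenchyme (PM) and submandibular mesenchyme (SM), each panel on its own linear scale from 0. Adamts18 is high in both epithelia, Adamts14 and Adamts19 are high in parotid epithelium and submandibular mesenchyme, Adamts16 is high only in parotid mesenchyme, and Mmp15 overlaps across all groups.

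Set side by side, the layer differences of the glands placed 24 of the 38 tested members as lower in epithelium in both glands, where 25.7% of all tested genes were. Adamts18 alone was higher in both, where 25.2% of all genes were. Adamts14 and Adamts19 were higher in parotid epithelium and lower in submandibular epithelium, where 0.902% of all genes were. Adamtsl1, Adamtsl5, Adamts16 and Mmp24 were called lower in the parotid gland alone, and Adamts6, Adamts8 and Adamts9 in the submandibular gland alone. Mmp17 and Adamts4 were called higher in submandibular epithelium alone, and Mmp15 and Mmp23 in neither. A call in one gland alone does not show that the glands differ. The test of that difference, which is the same as that of the gland difference between layers, was passed by Adamtsl1, Adamtsl5, Adamts16, Adamts6, Adamts8 and Mmp17 among these, and not by Mmp24, Adamts9 or Adamts4. For Adamts8 it was lost without replicate 4 of parotid epithelium or replicate 4 of submandibular mesenchyme (edgeR adjusted p = 0.0531 and 0.0579) and with limma-voom (0.0936). For Adamts4 it was passed without replicate 3 of submandibular epithelium or replicate 1 of parotid mesenchyme (0.024 and 0.0453) and with DESeq2 (0.0228).

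**Figure D4:**
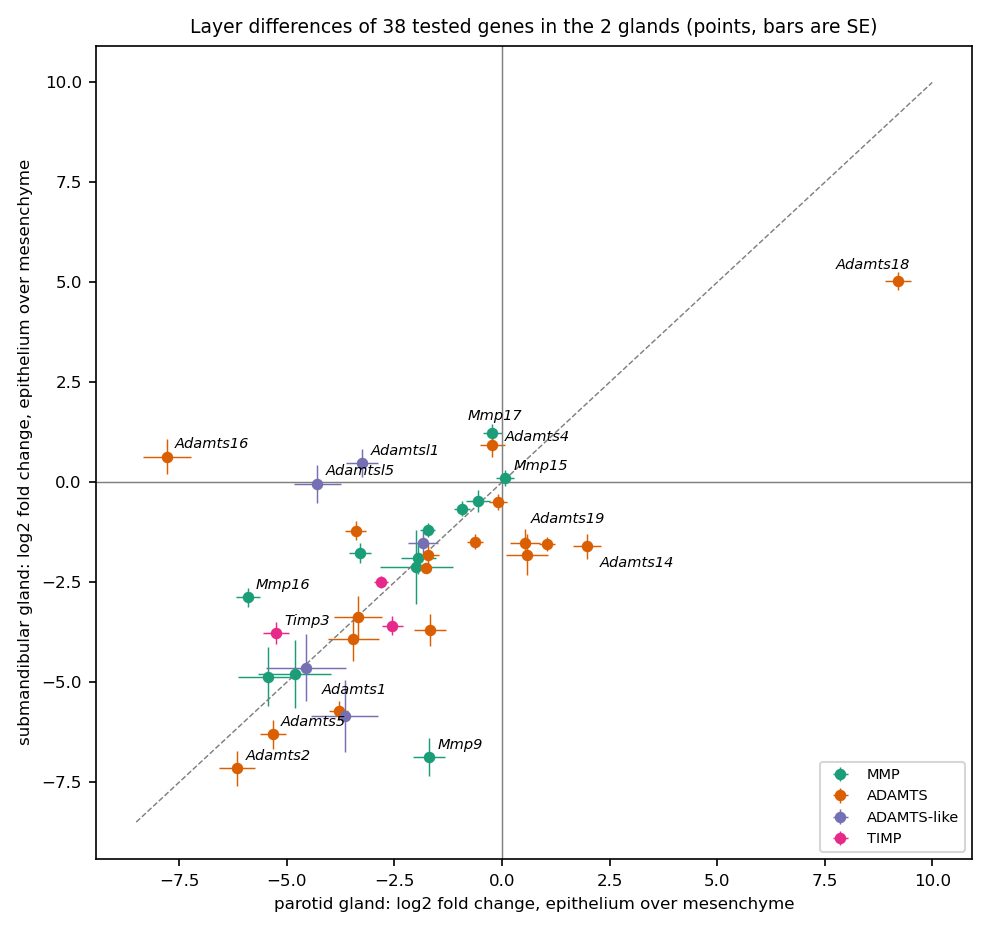
Log2 fold change of epithelium over mesenchyme in the parotid gland (x axis) and the submandibular gland (y axis) for the 38 tested genes, coloured by family, with SE as bars and a dashed line where both are equal. Most points lie below 0 on both axes, Adamts18 is at 9.201 and 5.03, Adamts14 and Adamts19 are right of 0 and below it, and Adamts16 is at -7.79 and 0.64.

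Of the gland differences, 6 members were higher in the parotid gland in both layers, which were Adamts4, Adamts5, Adamts12, Mmp2, Mmp14 and Mmp17, where 4.63% of all tested genes were, and none was lower in both, where 2.08% were. With a change beyond 1.5-fold required, Adamts5 alone of these 6 kept the epithelial call (edgeR adjusted p 0.127 to 0.693 for the others). Adamts12 and Mmp2 lost the mesenchymal call there as well (0.334 and 0.0539). Adamts4, Adamts12 and Mmp2 also lost the epithelial call without replicate 4 of parotid epithelium and replicate 1 of submandibular epithelium together. Mmp9, Adamts14 and Adamts19 were higher in parotid epithelium and lower in parotid mesenchyme, where 1.09% of all genes were. Mmp16, Adamts7, Adamts16 and Adamtsl5 were lower in parotid epithelium and higher in parotid mesenchyme, where 1.56% were. For all 7 the difference between the layers passed the test. Adamts1, Adamts8, Adamts9, Adamts15 and Adamts17 were called higher in the parotid gland in epithelium alone, and this difference between layers passed for Adamts1 (1.92), Adamts8 (2.39), Adamts15 (2.02) and Adamts17 (0.86) but not for Adamts9 (edgeR adjusted p = 0.367). The Adamts17 value was lost without replicate 2 or 4 of parotid epithelium, replicate 1 or 2 of submandibular epithelium or replicate 4 of submandibular mesenchyme (adjusted p 0.0508 to 0.0559) and with no filter on low counts (0.0543). The difference between layers was also passed by Adamts2 without replicate 3 of submandibular epithelium (0.0181), and by Adamts10 without replicate 4 of submandibular epithelium or replicate 3 of submandibular mesenchyme (0.041 and 0.0287), with library totals alone (0.0139), with DESeq2 (0.042) and with a stricter filter on low counts (0.0328). Neither layer's gland difference passed for 13 members, Timp2, Mmp15, Adamts2, Adamts3 and Adamts10 among them. In mesenchyme, limma-voom and a fit of the 8 libraries alone also called Adamts3 lower (adjusted p = 0.0407 and 0.00955) and Mmp25 higher (0.0369 and 0.0412) in the parotid gland.

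**Figure D5:**
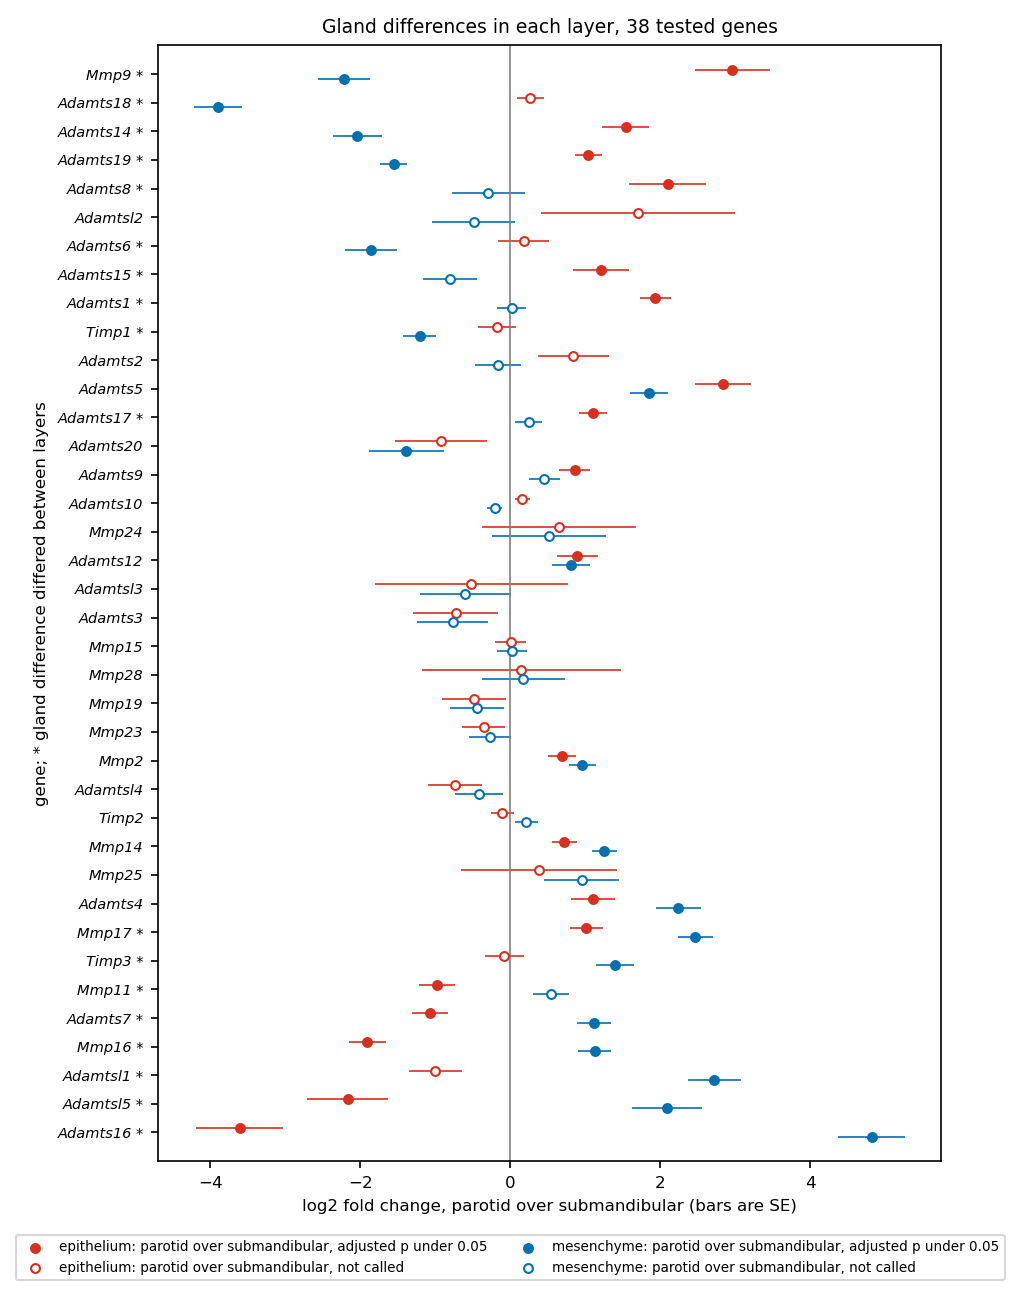
Log2 fold change of parotid over submandibular in epithelium (red) and mesenchyme (blue) for the 38 tested genes, ordered by the difference between the layers, with SE as bars, filled points for an adjusted p under 0.05 and an asterisk where the layers differed. Mmp9 is at the top with 2.97 in epithelium and -2.21 in mesenchyme, and Adamts16 at the bottom with -3.61 and 4.82.

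Genes that work with these proteases were counted from lists. For scale, 31.4% of all tested genes were higher and 33.5% lower in epithelium in the parotid gland. In the submandibular gland 33.3% were higher and 33.7% lower. Of 4 furin-like convertases, which remove propeptides, 1 was higher and 3 were lower in epithelium in each gland. The higher gene was Pcsk6, with 84.3 ± 19.8 CPM in parotid epithelium, against 37.4 ± 10.2 CPM in submandibular epithelium, and 12.02 ± 4.33 CPM in parotid mesenchyme, against 9.87 ± 0.765 CPM in submandibular mesenchyme (SD, n = 4), which was also higher in parotid than in submandibular epithelium (log2 fold change 1.17, SE 0.23, edgeR adjusted p = 0.00191). Of 6 tested genes of plasminogen activation, which can free MMPs from their propeptides, none was higher in epithelium, and 3 were lower in the parotid and 5 in the submandibular gland. Serpine2, an inhibitor of plasminogen activators, averaged 226 ± 16.7 CPM in parotid epithelium, against 77.4 ± 6.23 CPM in submandibular epithelium, and 207 ± 64.9 CPM in parotid mesenchyme, against 431 ± 64.2 CPM in submandibular mesenchyme and was higher in parotid than in submandibular epithelium (log2 fold change 1.55, SE 0.17, edgeR adjusted p = 8.19e-06). Of 6 membrane regulators and clearance receptors, 1 was higher and 4 were lower in parotid epithelium than mesenchyme, and 2 were higher and 4 lower in the submandibular gland. Reck, a membrane-anchored inhibitor of MMPs, averaged 7.73 ± 0.898 CPM in parotid epithelium, against 7.73 ± 0.827 CPM in submandibular epithelium, and 95.2 ± 4.93 CPM in parotid mesenchyme, against 144 ± 10.6 CPM in submandibular mesenchyme, and was lower in parotid than in submandibular mesenchyme (log2 fold change -0.59, SE 0.09, edgeR adjusted p = 0.000101). Cd44, a hyaluronan receptor that can hold MMPs at the cell surface, averaged 4.88 ± 1.86 CPM in parotid epithelium, against 3.21 ± 1.23 CPM in submandibular epithelium, and 204 ± 37.5 CPM in parotid mesenchyme, against 12.1 ± 4.695 CPM in submandibular mesenchyme, and was higher in parotid than in submandibular mesenchyme (log2 fold change 4.08, SE 0.33, edgeR adjusted p = 2.03e-07).

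Of 8 membrane-anchored ADAM proteases, 6 were lower in epithelium in each gland, where 33.5% of all genes were in the parotid and 33.7% in the submandibular gland. Only 1 was higher, in the submandibular gland, where 33.3% of all genes were. Adam12 averaged 0.813 ± 0.638 CPM in parotid epithelium, against 0.389 ± 0.375 CPM in submandibular epithelium, and 190.3 ± 36.9 CPM in parotid mesenchyme, against 83.2 ± 6.48 CPM in submandibular mesenchyme. Between glands, 3 ADAM genes were higher and 1 lower in parotid epithelium, where 11.2% and 9.72% of all genes were. In parotid mesenchyme 4 were higher and none lower, where 20.8% and 13.7% of all genes were. Of 5 tolloid proteases and their enhancers, which process procollagens at the other end, 5 were lower in epithelium in the parotid and 4 in the submandibular gland. The shares of all genes that were lower were 33.5% and 33.7%. Among 5 thrombospondin repeat relatives and genes of their glycosylation, Thsd4, an ADAMTS-like protein by sequence, averaged 5.61 ± 1.09 CPM in parotid epithelium, against 45.8 ± 13.2 CPM in submandibular epithelium, and 86.9 ± 12.9 CPM in parotid mesenchyme, against 21.3 ± 2.73 CPM in submandibular mesenchyme. Thsd4 was lower in parotid than in submandibular epithelium (log2 fold change -3.03, SE 0.20, edgeR adjusted p = 4.09e-08) and higher in parotid than in submandibular mesenchyme (log2 fold change 2.03, SE 0.19, edgeR adjusted p = 4.25e-07). Papln, another relative, was higher in epithelium, with 16.2 ± 4.52 CPM in parotid epithelium, against 25.7 ± 5.71 CPM in submandibular epithelium, and 0.500 ± 0.185 CPM in parotid mesenchyme, against 1.14 ± 0.513 CPM in submandibular mesenchyme. In that list 1 gene was higher and 4 lower in parotid epithelium than mesenchyme, where 31.4% and 33.5% of all genes were. In the submandibular gland 2 were higher and 3 lower, where 33.3% and 33.7% of all genes were.

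Among 5 tested substrates of the lectican and fibrillin classes, 2 were higher and 3 lower in epithelium in the parotid gland, where 31.4% and 33.5% of all genes were. In the submandibular gland none was higher and 4 were lower, where 33.3% and 33.7% of all genes were. Versican, Vcan, cut by Adamts1, Adamts4, Adamts5, Adamts9, Adamts15 and Adamts20, averaged 418 ± 86.2 CPM in parotid epithelium, against 196 ± 35.6 CPM in submandibular epithelium, and 244 ± 17.7 CPM in parotid mesenchyme, against 236 ± 62.5 CPM in submandibular mesenchyme, and was higher in parotid than in submandibular epithelium (log2 fold change 1.09, SE 0.18, edgeR adjusted p = 0.000413). Aggrecan, Acan, averaged 0.899 ± 0.774 CPM in parotid epithelium, against 0.998 ± 0.687 CPM in submandibular epithelium, and 0.0352 ± 0.0243 CPM in parotid mesenchyme, against 19.2 ± 6.57 CPM in submandibular mesenchyme and was lower in parotid than in submandibular mesenchyme (edgeR adjusted p = 3.59e-07). Of 6 fibrillar procollagens with an N-propeptide, 5 were lower and 1 was higher in epithelium in each gland. Of all genes, 33.5% were lower and 31.4% higher in the parotid gland, and 33.7% and 33.3% in the submandibular gland. Col3a1 averaged 75.2 ± 60.3 CPM in parotid epithelium, against 46.9 ± 66.03 CPM in submandibular epithelium, and 11720 ± 2343 CPM in parotid mesenchyme, against 7961 ± 968 CPM in submandibular mesenchyme, and Col2a1, the higher one, averaged 998 ± 304 CPM in parotid epithelium, against 581 ± 232 CPM in submandibular epithelium, and 44.2 ± 20.4 CPM in parotid mesenchyme, against 13.4 ± 9.99 CPM in submandibular mesenchyme.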

How the data were processed

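Salivary epithelium and mesenchyme of mouse embryos, separated by gland and layer, were profiled by RNA-seq with SMART-Seq v4 amplification and Nextera XT libraries, per the labels' protocols, which mark no strand. The authors deposited whole-number counts per gene and library, and a second table whose values are a signal, the authors' TMM-scaled CPM. STAR 2.5.2a, edgeR and GRCm38 (mm10) are named by the submitters' processing notes, and the sources used here name neither the read counter nor its annotation. All values were computed from the deposited counts of the 48709 gene features, leaving out 92 spike-in features. The deposited scaled values were recomputed from the counts, and the CPM given here, scaled over genes alone, differ from them by up to 4.45% for the members.

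Counts were fitted in R 4.3.3 with edgeR 4.0.16 (TMM scaling, filterByExpr, robust quasi-likelihood) over 4 groups of 4 libraries, giving 18191 tested genes and 5 contrasts: parotid minus submandibular in each layer, epithelium minus mesenchyme within each gland, and epithelial minus mesenchymal gland difference. Adjusted p-values are Benjamini-Hochberg over all tested genes, and SE was computed as the absolute log2 fold change over the square root of F. DESeq2 1.42.0, limma 3.58.1 voom, other scalings and filters, a fold threshold, a replicate block and leaving out libraries were alternatives. The fitting code was tested on simulated data. Depth was 16912258 to 27646844 gene counts per library, so groups with few counts carry wide counting error. Replicates are separate samples by the labels, and p-values measure the spread between these samples. No 2 libraries of the same group agreed within sampling noise, and pairs from different groups were not compared. Gene positions are GENCODE M21 on GRCm38, and promoter windows are RefSeq on GRCm38.p6. All 42 members were named, in most detail up to 10 per contrast with the largest change among those called at 1.5-fold or more and 5 CPM or more. Partner genes were named only from the up to 2 called genes of each list with the largest fold changes in each contrast, and not every such gene was named. The members and lists were chosen with earlier results of these data known.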

Additional observations from a re-analysis of the deposited data

Results flagged for a closer look

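In 7 of 124 groups of 4 libraries examined, a member had 1 library far from the other 3 by Dixon's gap test at 95%, where chance alone gives about 1 group in 20. Adamtsl1 was low in replicate 3 of parotid epithelium, at 2.498 CPM. Timp1 was low in replicate 2 of submandibular epithelium, at 0.846 CPM. Adamts14 was high in replicate 4 of submandibular epithelium, at 18.4 CPM. Adamts1 was low in replicate 2 of parotid epithelium, at 46.9 CPM, in replicate 2 of submandibular epithelium, at 11.8 CPM, and in replicate 4 of submandibular mesenchyme, at 878 CPM. Adamts5 was low in replicate 4 of submandibular mesenchyme, at 28.9 CPM. In that library the osteoclast markers summed to 98.7 CPM, against 217 to 246 CPM in the other 3 of its group, and what sets it apart was not tested.

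The parotid over submandibular log2 fold change differed between epithelium and mesenchyme for 18 members by edgeR's test of the difference. The difference, epithelium minus mesenchyme, was positive for Mmp9 (5.17), Adamts18 (4.17), Adamts14 (3.58), Adamts19 (2.59), Adamts8 (2.39), Adamts6 (2.04), Adamts15 (2.02), Adamts1 (1.92), Timp1 (1.03) and Adamts17 (0.86). It was negative for Adamts16 (-8.43), Adamtsl5 (-4.26), Adamtsl1 (-3.72), Mmp16 (-3.03), Adamts7 (-2.19), Mmp11 (-1.52), Timp3 (-1.48) and Mmp17 (-1.46). The Timp1 difference was lost in 7 of the 16 fits that left out 1 library: replicate 4 of parotid epithelium, replicate 2 of submandibular epithelium, replicate 2 or 4 of parotid mesenchyme, and replicate 1, 3 or 4 of submandibular mesenchyme, with edgeR adjusted p from 0.0565 to 0.0858, and with limma-voom (0.0523) and no filter on low counts (0.0536).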

How the results depend on the processing

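No called value of a tested member changed sign under any alternative run. Leaving out 1 library at a time gave 16 to 20 members called for the glands in epithelium (19 with all), 17 to 21 for the glands in mesenchyme (19), 30 to 32 for the layers of the parotid gland (31), 31 to 34 for the layers of the submandibular gland (32) and 15 to 20 for the difference of gland differences (18). Requiring a change beyond 1.5-fold left 10 members called between the epithelia, 7 higher and 3 lower in the parotid gland. Mmp2, Mmp11, Mmp14, Mmp17, Adamts4, Adamts7, Adamts9, Adamts12 and Adamts15 lost that call. Over all genes it left 930 called of 18191 there, against 3801 in the main test. The same threshold left 16 members between the mesenchymes, 29 between the layers of each gland and 15 for the difference of gland differences. Over all genes these counts were 2346, 7113 (parotid), 7640 (submandibular) and 1572, against 6282, 11804, 12186 and 3799 in the main test. Other alternatives, which were RLE or library-total scaling, DESeq2, limma-voom, no filter or a stricter filter on low counts, and fits of the 8 libraries compared (not run for the difference of gland differences), kept the counts within 1.5 times. Leaving out replicate 4 of parotid epithelium and replicate 1 of submandibular epithelium together gave 14 members between the epithelia, with Adamts4, Adamts8, Adamts12, Adamts15 and Mmp2 lost. Over all genes that fit called 1846 of 18362 between the epithelia, against 3801 of 18191 with all libraries. The 2 libraries left out had the highest erythroid marker sums of their groups, 495 and 739 CPM. Scaling by library totals alone moved the median of all genes to -0.137 between the mesenchymes (0.036 with TMM), -0.104 between the submandibular layers (0.014) and 0.099 for the difference of gland differences (-0.045). With the replicate number as a block, 20, 18, 30, 32 and 19 members were called in the same order of comparisons. The block added Adamtsl1 between the epithelia (edgeR adjusted p = 0.0394) and Adamts4 (0.0354) and Mmp14 (0.0397) to the difference of gland differences, and took out Adamts20 between the mesenchymes (0.0802), Mmp24 between the parotid layers (0.081) and Adamts8 from the difference of gland differences (0.0542). Same-numbered libraries correlated at -0.117 to 0.218 in their deviations from group means, and most did not correlate best with their own number, so the numbers were not read as pairs. Depth limits members with few counts in a group, such as Mmp28 and Adamtsl2.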
